A study of Mus musculus with 35 samples.

Results

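The genes described here are 9 genes of the cortical hem and of R-spondin and Wnt signaling, *Rspo1*, *Rspo2*, *Rspo3*, *Wnt8b*, *Wnt3a*, *Wnt5a*, *Lmx1a*, *Dkk3* and *Dmrt3*, of 53465 genes listed in the bulk data. They were chosen by name because of their levels in these same samples, namely in the neural population against the other populations and on the plates labelled *Mof* knockout. Their levels are therefore given as a description, without a test, and tests are given only for other genes of the same pathways. All 9 were found in the bulk table and in the single cell tables.

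The cells came from mouse brains at stage E14.5. In bulk, 4 populations (neural, mural, endothelial and microglial) were sorted from each of 3 wild-type brains, giving 12 libraries, named N, Mu, Ec or Mi with the number of the brain (N-340, N-343, N-346 and so on). In scRNA-seq (mCEL-Seq2, which counts 3′ transcript ends by molecular identifiers), 11 libraries on plates 1 to 3 held wild-type cells with a recorded sort gate (neural, mural, endothelial or microglial, or, for 23 of the cells kept, a sort of medium to low PDGFRβ that is none of these 4), and 12 libraries on plates 4 to 6 held cells labelled *Mof* knockout without one. The neural gate is a gate of absence: its cells were negative for the endothelial markers PECAM1 and CD102, for the mural marker PDGFRβ and for blood cell markers. It was not complete, as the mural and endothelial gates held 15 and 8 cells in which neural markers had the highest mean level of the 4 marker lists (neural-like cells). The strain, the sex of the embryos, the deleted part of *Mof* and the way in which the deletion was driven are not given in the labels or methods used here.

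The cortical hem is a strip of neuroepithelium at the medial edge of the developing cortex, between the hippocampal primordium and the choroid plexus, and is known as a source of secreted Wnt and BMP proteins that pattern the hippocampus. Wnt proteins bind Frizzled receptors with LRP5 or LRP6 as co-receptors, and the canonical branch stabilizes β-catenin, which acts with TCF/LEF factors on target genes such as *Axin2*. R-spondins are secreted proteins that bind LGR receptors and the membrane ubiquitin ligases ZNRF3 and RNF43, which otherwise remove Frizzled receptors from the cell surface.

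The bulk libraries held 17638358 to 98414914 reads on genes, as recovered from the normalized counts. The neural libraries were made with a TruSeq kit and the libraries of the other 3 populations with SMART-Seq v4 and Nextera XT kits, so the neural population and the kit cannot be told apart in bulk. Lists of 10 mural, endothelial or microglial markers had their highest summed level in all 3 libraries of their own population. The 10 neural markers did not separate neural cells (174331 to 197872 normalized counts) from mural cells (96166 to 186420, highest in Mu-343), whereas young neuron markers did. These, a list of 8 genes, summed to 131879 to 142648 normalized counts in the neural libraries and to 3294.7 to 8673 in the other 9, with Mu-343 the highest of these. None of the 8 was at 0 in all 3 libraries of any population. Single cells were kept above 1500 transcripts, which left 709 wild-type cells with a median of 7570.3 transcripts and 882 cells of the knockout plates with a median of 6700. The targeted gene *Kat8*, which encodes MOF, had 5.99 to 16.9 CPM (a cell set's transcripts of a gene scaled to a total of 1e+06) in the 12 libraries of the knockout plates, with a median of 11.9, and 0 to 28.1 CPM in the 11 wild-type libraries, with a median of 17.8. In the cells with mostly neural markers it was at 5.06, 7.56 and 24.6 CPM on plates 4, 5 and 6 (3, 7 and 7 transcripts) and at 23.8, 28.9 and 10.2 CPM on plates 1, 2 and 3 (16, 14 and 1). The ranges overlapped, and where the 3′ tag lies against the deleted part is not known, so these plates are called by their label.

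Of the 3 R-spondin ligands, *Rspo3* was the most abundant in neural cells. *Rspo3* (ENSMUSG00000019880, chromosome 10, 29452416 to 29535867, mm10) had 721.1, 686.1 and 721.0 normalized counts in the neural libraries (values are given in the order of brains N-340, N-343, N-346 throughout), and 13.5, 168.9 and 98.6 in the mural ones. Endothelial cells held 0, 79.5 and 0, while 0, 10.7 and 12.6 were counted in microglia. All 3 neural libraries lay above the other 9, the neural mean of 709.4 ± 20.2 (SD, n = 3) was 7.57 times the mural mean of 93.7 ± 77.8, and the mural libraries ranged widely. In the endothelial cells 1 library of 3 held any *Rspo3*. In bulk, fewer cells of a type and less RNA per cell cannot be told apart.

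*Rspo2* (ENSMUSG00000051920, chromosome 15, 43020794 to 43170826) had 205.7, 185.5 and 224.6 normalized counts in neural cells. Mural libraries held 0, 0 and 95.8, endothelial ones 0, 0 and 36.2, and *Rspo2* was at 0 in each microglial library. The neural libraries again lay above all others, and the mural and endothelial signal came from Mu-346 and Ec-346 alone, as 102 and 24 reads. The neural mean was 205.2 ± 19.5 (SD, n = 3), and the log2 ratio of the neural mean to the mean of the other 9 libraries (1 added to both) was 3.72, and 7.62 without the brain of N-346.

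*Rspo1* (ENSMUSG00000028871, chromosome 4, 124986430 to 125009099) differed from the other R-spondins in its order of levels. It had 305.5, 182.6 and 221.6 normalized counts in microglia and 89.5, 89.7 and 78.2 in neural cells. The mural libraries held 0, 11.4 and 30.1 and the endothelial ones 0, 0 and 1.51. The microglial libraries were the highest and did not overlap with the neural ones, at 2.76 times the neural mean, and the neural libraries did not overlap with the mural ones. The microglial and neural libraries also differ in kit. In the single cells below, microglia were not above neural cells when cells were classed by their markers. *Rspo2* was at 0 in these same microglial libraries, which held 587 reads of *Rspo1* in all.

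Of the 3 Wnt ligands, *Wnt8b* and *Wnt3a*, which are known markers of the hem in the cortex, were highest in neural cells. *Wnt8b* (ENSMUSG00000036961, chromosome 19, 44493472 to 44514273) had 211, 193.8 and 170.7 normalized counts in neural cells and 0, 133.5 and 19.7 in mural cells. Every endothelial library was at 0, and microglia had 0, 3.56 and 30.2. Every neural library was above every other one, although Mu-343, the mural library with the highest neuronal markers, came close to N-346 (the part of such cells was not tested). *Wnt3a* (ENSMUSG00000009900, chromosome 11, 59248033 to 59290752) was low: 18.7, 21.0 and 23.8 normalized counts in the neural libraries, from 142 reads, and 0 in the other 9. Its mean over the 12 libraries, 5.29, was under the minimum of 10 used for tests, which the other 8 genes passed.

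*Wnt5a* (ENSMUSG00000021994, chromosome 14, 28504750 to 28527448), mostly known as a ligand of the non-canonical branch, was not particular to neural cells. It had 710.4, 683.3 and 663.1 normalized counts in neural cells and 596, 1042.1 and 694.1 in mural cells, and these ranges overlapped. Endothelial cells had 92.1, 286.7 and 232.3, below both, and the 3 microglial libraries had none.

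*Lmx1a*, *Dmrt3* and *Dkk3* complete the set. *Lmx1a* (ENSMUSG00000026686, chromosome 1, 167689237 to 167848741), a homeodomain factor of the hem and roof plate, had 267.1, 193.8 and 171.7 normalized counts in neural cells, 0, 35.4 and 0 in mural cells, 0, 193.1 and 0 in endothelial cells and none in microglia. Ec-343, with 136 reads, lay within the neural range, so these 2 populations overlapped. The log2 ratio of the neural mean to the mean of the other libraries was 3.01, and 7.78 without the brain of Ec-343. *Dmrt3* (ENSMUSG00000042372, chromosome 19, 25610301 to 25623921), a DM-domain factor of the medial cortex, had the greatest fold between neural cells and the next population with any reads: 336.5, 309 and 364.1 normalized counts in neural cells against 12.7, 0 and 0 in mural cells, 0 in endothelial cells and 0, 0 and 8.81 in microglia. Its neural mean was 79.7 times the mural mean, which rests on 29 reads of 1 library.

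*Dkk3* (ENSMUSG00000030772, chromosome 7, 112116017 to 112159057), a secreted protein of the Dickkopf family, was highest in mural cells, with 2130.1, 2366 and 3134.2 normalized counts. Neural cells had 524.8, 563.2 and 552.9, endothelial cells 258.7, 4.26 and 274.5, and microglia 0, 0 and 2.52. The mural mean of 2543.5 ± 525 (SD, n = 3) was 4.65 times the neural mean of 547 ± 19.9, and neither range touched another. In the mural libraries 10 fibroblast and meningeal markers summed to 10376 to 13781 normalized counts, against 263 to 294 in the neural ones. The 10 mural markers summed to 711191 to 768840 there. The part of fibroblast or meningeal cells in the mural levels of this and other genes was not tested. Per kilobase of exon, which allows genes to be compared, the neural order was *Rspo3* at 229.6, *Dkk3* at 162.8, *Dmrt3* at 137.6, *Wnt5a* at 87.6, *Lmx1a* at 62.1, *Wnt8b* at 55.1, *Rspo1* at 44.3, *Rspo2* at 40.1 and *Wnt3a* at 7.67 normalized counts per kb. *Lmx1a* (SD 14.7) and *Wnt8b* (SD 5.82) did not differ beyond their spread, nor did *Rspo1* (SD 3.39) and *Rspo2* (SD 3.82).

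**Figure D1:**
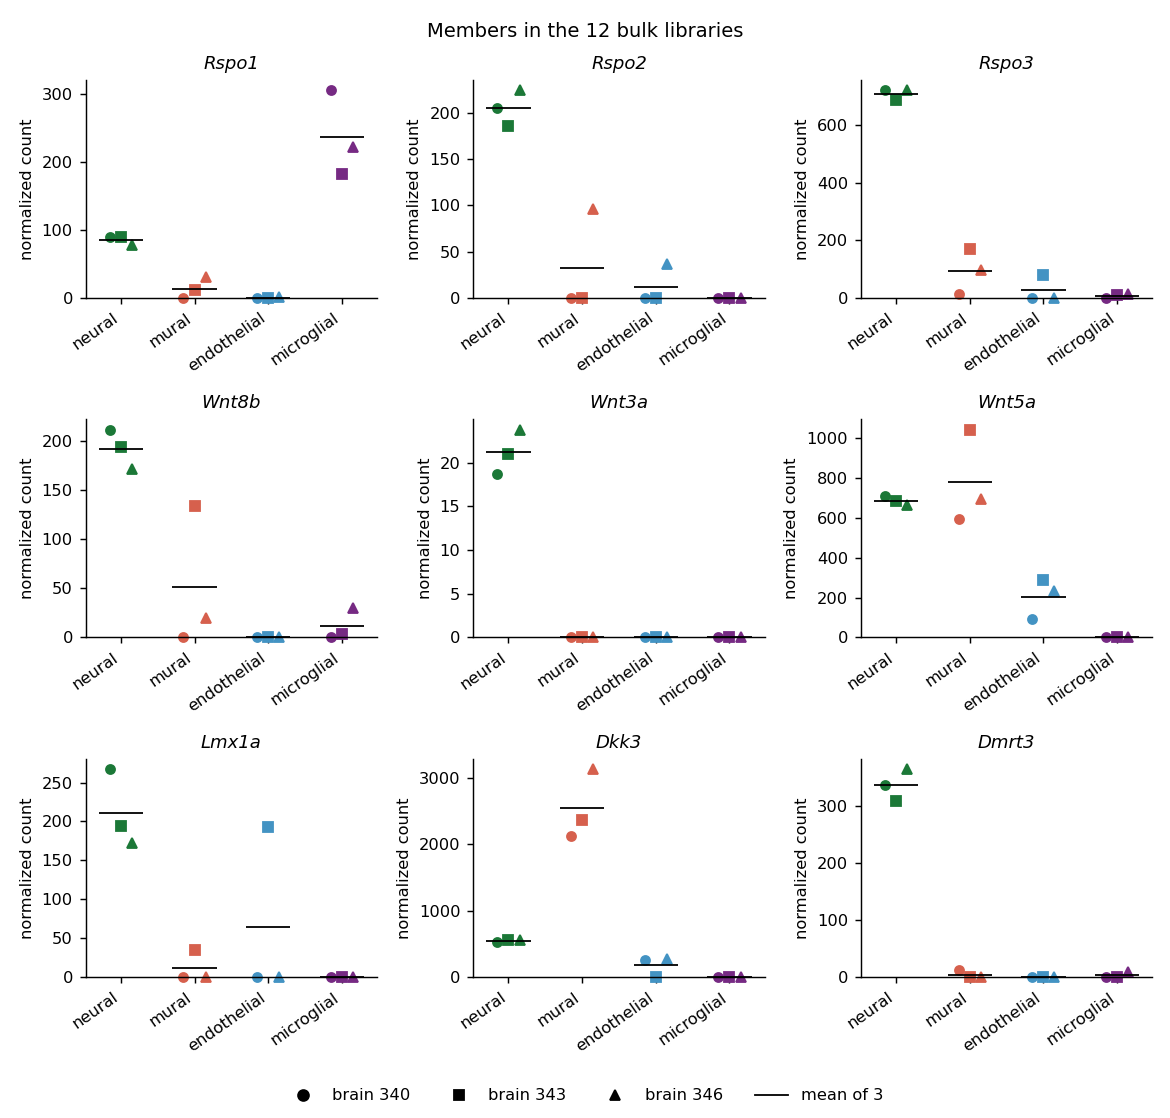
Normalized counts (vertical axis, linear, from 0) of the 9 genes in the 12 bulk libraries by population, with a point per library, its shape giving the brain, and a line at the mean of 3. *Rspo1* is highest in microglia, *Dkk3* in mural cells, *Wnt5a* is alike in neural and mural cells, and single libraries of mural or endothelial cells stand apart from the rest for *Rspo2*, *Wnt8b* and *Lmx1a*.

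Genes with the most similar profile over the 12 bulk libraries were named by the highest Pearson correlation of log2(normalized count + 1), members left out. These values share the 4 populations, with 3 libraries each, and say nothing of a shared role. *Lmx1a* was most like *A930005G22Rik* (r = 0.995) and *Pax7* (r = 0.978), a paired-box factor of the dorsal midbrain and neural tube. *Rspo2* was most like *Lnx1* (r = 0.992) and *Ccdc159* (r = 0.974), and *Rspo3* was most like *Lrp3* (r = 0.974) and *Irs1* (r = 0.966). For *Rspo1* these were *Rnf180* (r = 0.974) and *Fhit* (r = 0.965), for *Wnt8b* *Fsip1* (r = 0.978) and *Nudt8* (r = 0.968), and for *Wnt5a* *Lrrc8b* (r = 0.991) and *Tnks1bp1* (r = 0.982). *Dkk3* was most like *Dubr* (r = 0.966) and *Rabl2* (r = 0.965), and *Dmrt3* was most like *Fam135b* (r = 0.990) and *Gm27199* (r = 0.986). *Wnt3a*, at 0 in 9 libraries, was matched by *Gm14048* and *Aldh1a3*, a retinoic acid enzyme, both of which share those zeros. Among the members themselves *Wnt3a* and *Dmrt3* were the closest pair (r = 0.932), followed by *Wnt5a* and *Dkk3* (r = 0.882), while *Rspo1* and *Wnt5a* were the most opposed pair (r = -0.50).

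Promoter sequence was available for 5 of the 9 genes (RefSeq, GRCm38.p6), from 250 bases before the start that RefSeq gives to 50 bases after it. For *Lmx1a* and *Dmrt3* the RefSeq start lies downstream of the GENCODE start given above. Because members that are detected in the same cells could share letters near their start, 2 short motifs were searched on both strands: CTTTGA with its complement TCAAAG, the core of the TCF/LEF motif, and TAAT with ATTA, the core of many homeodomain motifs. CTTTGA was found in none of the 5 windows, and in 16% of 32851 promoters of that length. TAAT was found in 3 of the 5, those of *Wnt8b*, *Lmx1a* and *Dmrt3*, and in 58% of all promoters. The 3 windows that hold it are shown, each 5′ to 3′ on the gene's strand, with the TAAT and ATTA matches in capitals. They lie at chr19:44493222-44493521 (plus strand), chr1:167689308-167689607 (plus strand) and chr19:25610287-25610586 (plus strand).
Wnt8b: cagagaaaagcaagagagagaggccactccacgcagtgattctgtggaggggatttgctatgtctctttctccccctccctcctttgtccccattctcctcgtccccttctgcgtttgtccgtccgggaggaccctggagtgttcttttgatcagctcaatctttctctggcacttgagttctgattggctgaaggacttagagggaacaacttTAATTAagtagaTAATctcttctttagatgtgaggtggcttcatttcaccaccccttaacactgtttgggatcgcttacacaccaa
Lmx1a: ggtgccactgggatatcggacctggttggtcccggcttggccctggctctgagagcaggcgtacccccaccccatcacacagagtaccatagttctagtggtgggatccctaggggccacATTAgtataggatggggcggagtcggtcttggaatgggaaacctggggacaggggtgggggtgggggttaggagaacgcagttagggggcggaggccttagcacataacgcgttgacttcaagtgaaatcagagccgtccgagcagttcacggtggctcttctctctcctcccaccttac
Dmrt3: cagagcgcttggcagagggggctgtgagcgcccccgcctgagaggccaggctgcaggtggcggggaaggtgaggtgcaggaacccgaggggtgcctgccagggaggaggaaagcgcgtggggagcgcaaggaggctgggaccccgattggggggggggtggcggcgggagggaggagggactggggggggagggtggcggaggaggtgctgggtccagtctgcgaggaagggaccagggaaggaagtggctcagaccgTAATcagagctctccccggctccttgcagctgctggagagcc
In *Wnt8b* the matches lay 36, 34 and 24 bases before the RefSeq start, and the first pair overlap. In *Lmx1a* the match lay 130 bases before the RefSeq start and in *Dmrt3* 8 bases after it. A match describes letters only, and the GC content of the windows, 48.3%, 59.3% and 70.7% against a median of 52.7% over all promoters, bears on how often such AT-only letters occur.

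In single wild-type cells the same genes were sparse, and the gate alone did not separate them. For 1 library of plate 3 the number in its title differs from that in the table of sort gates, and its wells were matched by the file number and barcodes. It holds 20 of the 43 cells of that plate, among them all 14 neural gate cells and all 6 microglia. In the 109 neural cells of the other libraries *Rspo3* was at 72.1 CPM and in 11.9% of cells, *Wnt5a* at 13.7 CPM and in 7.34%, and *Dkk3* at 25.2 CPM and in 7.34%, and no cell with at least 4 of the 9 genes was in that library. *Rspo3* was found in 16 of 123 neural cells, or 13% (exact 95% interval 7.62 to 20.3), in 5 of 210 cells of the mural gate, or 2.38%, in 2 of 225 endothelial cells, or 0.889%, and in 2 of 128 microglia, or 1.56%. Thinned to 1500 transcripts per cell, the neural share was 5.69% and the mural share 1.9%. By level, *Rspo3* was at 68.4 CPM in the neural gate, 28.4 CPM in the mural gate and 1.2 CPM in endothelial cells. In the mural gate all 44 transcripts were on plate 1, and none was in a cell classed as mural-like by its markers. The median depth was 7717 transcripts per neural cell and 6408 per endothelial cell. All such intervals, and the limits given for a count of 0, hold only the error of counting.

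*Rspo1* and *Rspo2* were found in 3 and 5 neural cells (2.44% and 4.07%) and in 8 and 5 mural cells (3.81% and 2.38%). The 39 *Rspo1* transcripts of the mural gate made 25.2 CPM against 4.14 in the neural gate, and 37 of them were on plate 1. *Rspo1* was also found in 6 of 128 microglia, or 4.69%, with 1 transcript in each, which is 4.38 CPM. In endothelial cells the share was 0.444%, and after thinning the shares were 0.781% in microglia and 0 in endothelial cells. The level of the mural gate came mostly from its neural-like cells. On plates 1 and 2 the mural-like cells held 4 *Rspo1* transcripts (3.45 and 2.36 CPM), and the microglial-like cells 6 (7.12 and 1.55 CPM). The neural-like cells of plates 1, 2 and 3 were at 56.7, 14.46 and 10.2 CPM, on 38, 7 and 1 transcripts. By class, microglia were thus not above neural cells as they were in bulk.

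*Wnt8b* was found in 1 neural cell, which alone held all 16 transcripts of that gate, and in 5 mural cells with 13 transcripts. *Wnt3a* was found in 1 neural cell and 2 mural cells, and *Lmx1a* in 3 and 1. Here too a mural cell is a cell of that gate: by markers, the mural-like wild-type cells held 1 transcript of *Wnt8b* and none of *Wnt3a* or *Lmx1a*. None of these 3 was found in 225 endothelial cells or 128 microglia, which, with 3 cells taken as the limit that a count of 0 allows, permits shares of cells with a transcript of up to 1.33% and 2.34%. *Dmrt3* was found in 7 neural cells (5.69%), 3 mural cells, 1 endothelial cell and 1 microglial cell.

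*Wnt5a* and *Dkk3* were found in a larger share of mural gate than of neural gate cells. The share of cells with *Wnt5a* was 20.5% (43 of 210, exact 95% interval 15.2 to 26.6) in the mural gate and 8.13% (10 of 123) in the neural gate, with 38.7 and 15.5 CPM. *Dkk3* was found in 47 mural cells, or 22.4%, against 8 neural cells, or 6.5%, with 58.1 and 22.8 CPM. On plates 1, 2 and 3 the mural level was 39.6, 39 and 27.5 CPM for *Wnt5a*, above 15.5 and 11.8 in the neural gate on plates 1 and 2 but below 32.8 on plate 3, where 14 neural and 10 mural cells were kept. For *Dkk3* it was 91.9, 27.2 and 123.6 CPM in mural cells and 24.4, 26.1 and 0 in neural cells, above in all 3 plates but only just in plate 2. By class rather than gate the order of *Dkk3* was not the same on plate 1, where neural-like cells held 57 transcripts at 84.9 CPM and mural-like cells 24 at 41.4 CPM. On plates 2 and 3 the neural-like cells were at 24.8 and 0 CPM and the mural-like cells at 27.2 and 108.4 CPM.

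The wild-type gates held some cells of another kind. Each cell was also classed by the highest mean level of 10 neural, mural, endothelial or microglial markers. By this measure 15 of the 210 cells of the mural gate were neural-like, as were 8 of 225 in the endothelial gate and 15 of the 23 cells sorted as medium to low for PDGFRβ, and 194 mural gate cells were mural-like. Over all plates 378 cells were neural-like, of which 6 lay within 0.5 log2 units of the next class.

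The levels in neural-like cells differed strongly between the plates labelled *Mof* knockout. By the same markers, plate 4 held 274 mural-like and 61 neural-like cells, plate 5 held 80 microglial-like and 114 neural-like cells, and plate 6 held 296 endothelial-like and 43 neural-like cells. In the neural-like cells of plates 4, 5 and 6, *Rspo3* was at 623.8, 27 and 10.5 CPM, and in those of wild-type plates 1, 2 and 3 at 116.2, 70.3 and 30.6 CPM. *Rspo1* was at 474.9, 5.4 and 3.51 CPM against 56.7, 14.46 and 10.2 CPM. *Rspo2* was at 347.8, 1.08 and 0 CPM against 32.8, 20.7 and 0 CPM. Plate 4 stood above every wild-type plate for all 3 ligands, and plates 5 and 6 lay below wild-type plates 1 and 2. The wild-type neural-like cells were pooled over all gates, whereas plate 4 held mostly mural-like cells. On wild-type plate 1 the mural gate held 44, 37 and 17 transcripts of *Rspo3*, *Rspo1* and *Rspo2*, and the mural-like cells 0, 2 and 0. A comparison of plate 4 with the neural-like cells of the mural gate alone was not made.

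Most Wnt ligands and factors followed the same order of plates. *Wnt8b* was at 261.7, 2.16 and 0 CPM on plates 4, 5 and 6 and at 41.7, 33.1 and 0 on plates 1, 2 and 3. *Lmx1a* was at 91.1 CPM on plate 4 and not found in the 114 and 43 neural-like cells of plates 5 and 6, against 8.93, 2.06 and 0 CPM in wild type. *Wnt3a* was at 33.7 CPM on plate 4 only among the knockout plates, against 7.44, 4.13 and 0 in wild type. *Dkk3* was at 393.4, 6.48 and 10.5 CPM against 84.9, 24.8 and 0, and *Wnt5a* at 148.4, 10.8 and 24.6 against 29.8, 14.45 and 30.6. *Dmrt3* was at 123.2, 25.9 and 14 CPM against 13.4, 6.19 and 10.2. It was the 1 gene of the 9 for which both plates 5 and 6 were above every wild-type plate, on 24 and 4 transcripts, and *Wnt5a* on plate 6 lay within the wild-type range. For the other 8 genes the higher level of the knockout plates thus rests on plate 4, for *Dmrt3* it was highest there, and genotype, plate and the cells that were sorted onto it cannot be told apart.

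**Figure D2:**
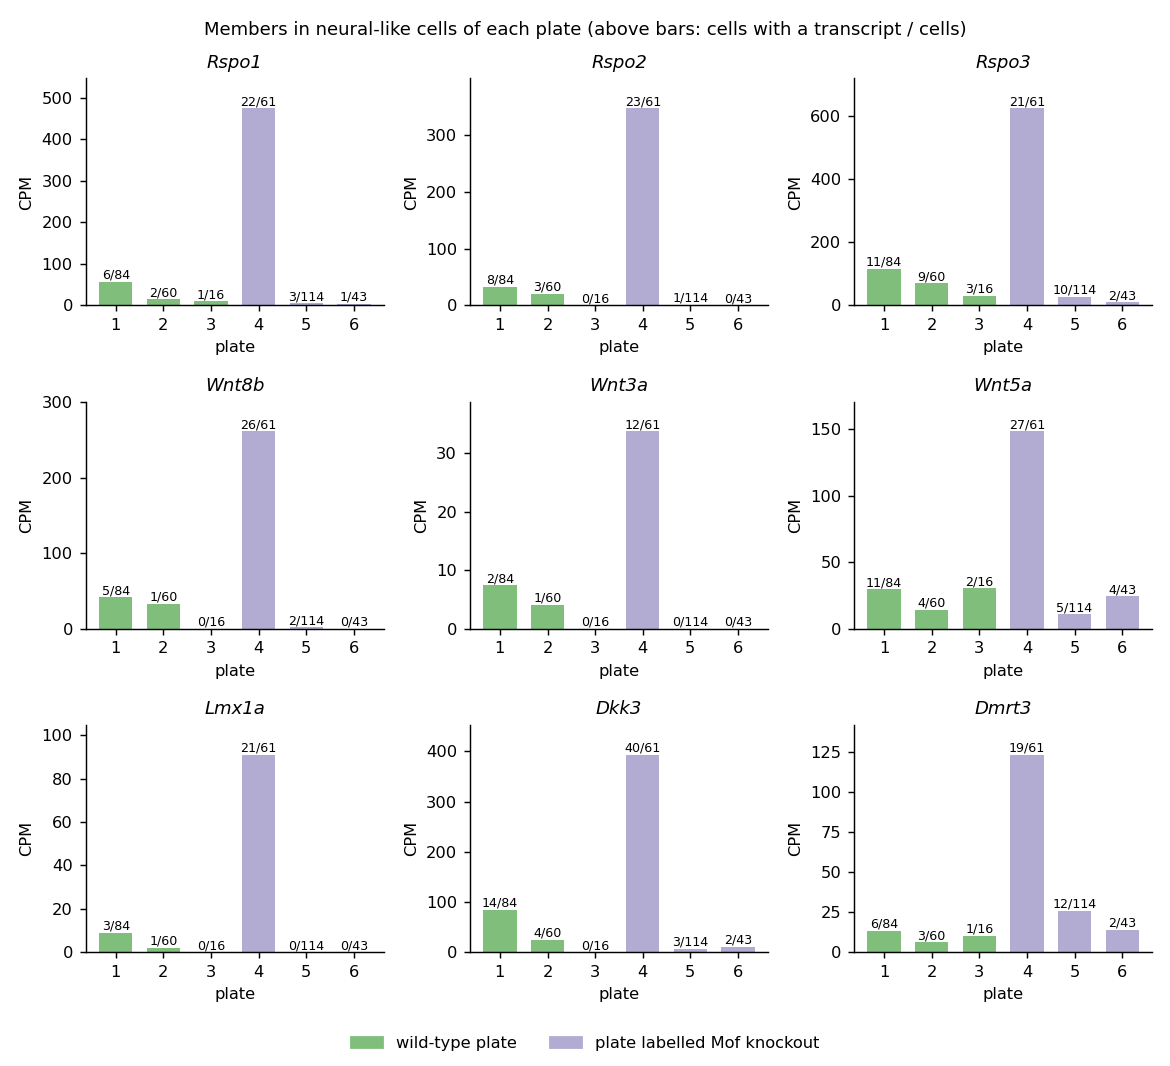
Level of each of the 9 genes in the neural-like cells of plates 1 to 3 (wild type, green) and 4 to 6 (labelled Mof knockout, violet), in CPM (linear axis from 0). Each bar carries the number of cells with a transcript and of cells in all, and plate 4 is the highest bar in every panel.

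The 9 genes were found together in a small number of cells. In the 1591 cells kept, 31 cells, or 1.95% (exact 95% interval 1.33 to 2.75), held transcripts of at least 4 of the 9 genes, a count that was set after the values were seen. Of these, 23 were on plate 4, at 6.82% of its 337 cells, and 8 on the wild-type plates. In wild type 4 were in the mural gate, 3 in the neural gate and 1 was sorted as medium to low for PDGFRβ. No such cell was found among 195 cells of plate 5, 350 cells of plate 6, 225 endothelial gate cells or 128 microglia, which by the same limit of 3 cells permits shares of up to 1.54%, 0.857%, 1.33% and 2.34%. The cells of plate 4 came from all 4 of its libraries, with 5, 7, 4 and 7 cells.

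All 31 cells were neural-like, although 4 of them had been sorted in the mural gate, and in 30 of them the progenitor markers had a higher mean level than the young neuron markers. They held a median of 7 of the 9 genes, and 5 cells, all on plate 4, held all 9. Their median depth was 7653 transcripts, and 1577 to 22116 in all. Just below the count of 4, plate 4 had 3 cells with 3 members and 1 with 4, but 20 with 6 to 9, so that few cells lay near the limit there. On the wild-type plates 4 cells held 3 members, 4 held just 4, and the other 4 held 7 or 8.

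Over all cells kept, these 31 cells held most transcripts of 7 of the genes, a total that plate 4 leads. They carried 91.2% of *Rspo1*, 92.6% of *Rspo2*, 82.4% of *Rspo3*, 80.7% of *Wnt8b*, 96.4% of *Wnt3a* and 83.9% of *Lmx1a*. For *Dmrt3* the part was 57.2%, for *Dkk3* 47.8% and for *Wnt5a* 23.7%, genes that were also found in other neural or in mural cells. Within wild type the 8 cells held most transcripts of 5 genes, with 100% of *Wnt3a*, 76.5% of *Rspo2*, 75.5% of *Rspo1*, 56.3% of *Rspo3* and 55.6% of *Wnt8b*. There they held 31% of *Dkk3*, 29.4% of *Dmrt3*, 28.6% of *Lmx1a* and 13.1% of *Wnt5a*. The levels of the R-spondins in the 23 cells of plate 4 were 1825.4 CPM for *Rspo3*, 1379.8 for *Rspo1* and 988.1 for *Rspo2*, and in the 8 wild-type cells 1052.7, 675.8 and 408.2 CPM. *Wnt8b* was at 701.6 and 392.6 CPM, *Wnt3a* at 98.7 and 109.8, and *Wnt5a* at 281.4 and 204. As a ratio the gap was widest for *Lmx1a*, with 246.8 and 31.4 CPM (50 and 2 transcripts), and *Dmrt3*, with 330.8 and 78.4, and *Dkk3* was at 909.5 and 691 CPM. All but *Wnt3a* were thus at a higher level in the cells of plate 4 than in the wild-type cells. Since the cells were chosen for holding these genes, the values describe them and test nothing.

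Pairs of genes overlapped to different degrees. *Rspo1* was found in 53 cells and *Rspo2* in 40, and 27 cells held both. Of the 16 cells with *Wnt3a*, 15 held *Rspo1*, 15 *Rspo2*, 15 *Rspo3* and 14 *Wnt8b*. Of the 26 cells with *Lmx1a*, 22 held *Rspo2* and 19 *Wnt8b*. *Dkk3* was found in 190 cells and *Wnt5a* in 176, with 52 cells in common.

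**Figure D3:**
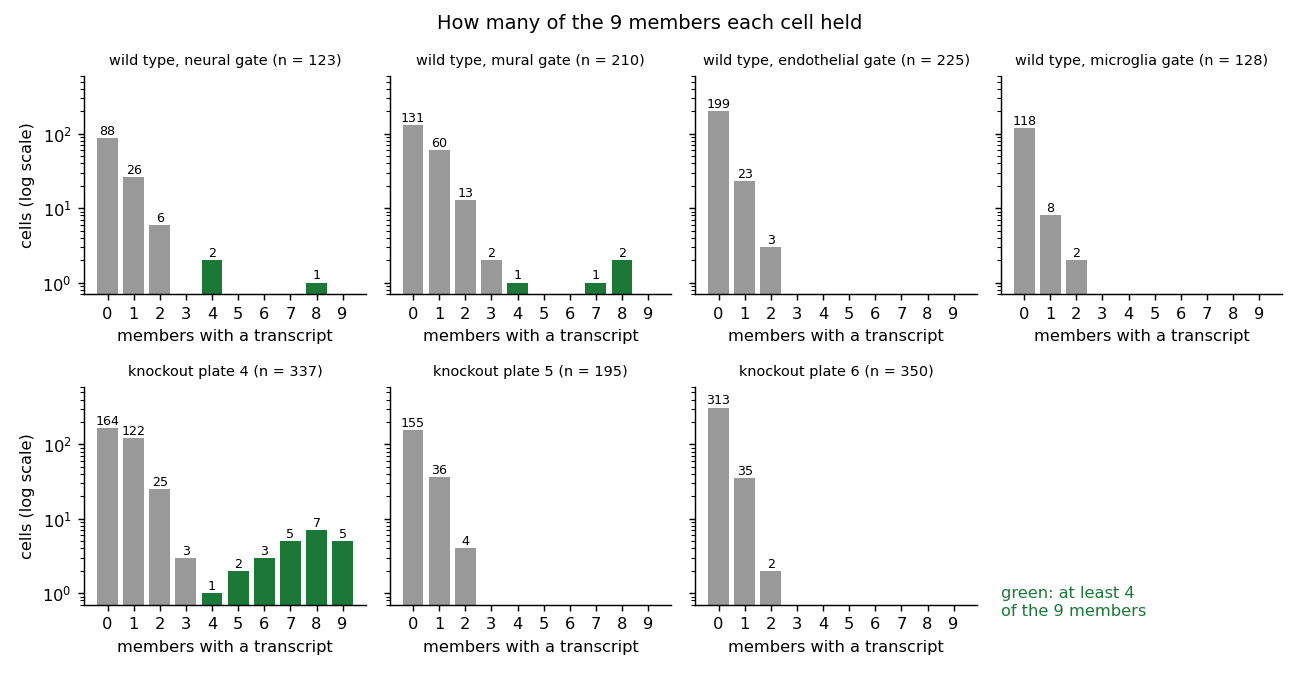
Number of cells (vertical axis, log scale, counts printed above the bars) that held transcripts of 0 to 9 of the 9 genes, in the 4 wild-type gates and on the 3 knockout plates, with counts of at least 4 in green. On plate 4 the counts fall to 1 cell at 4 genes and rise again to 7 cells at 8 genes, without a gap between. Single cells reach 8 in the wild-type neural and mural gates, and no cell goes above 2 in the endothelial and microglia gates or on plates 5 and 6.

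Other genes known from the hem and medial pallium, a list of 20 that shares no gene with the 9, were compared between these cells and other neural-like cells. The list joins both regions, so its sum does not measure the hem alone. On plate 4 the list summed to 3848 CPM in the 23 cells and 971.5 CPM in the other 38 neural-like cells. In wild type it summed to 2889.5 CPM in the 8 cells and 1447 CPM in the other 120 cells of the neural gate. Of its 17 genes with at least 10 transcripts in these cells, 12, or 70.6%, were higher in both comparisons and 1 lower, against 26.2% higher and 26.8% lower over all 10967 such genes. The shares over all genes were not matched for expression level, and the wild-type side rests on 8 cells. Of the 8 wild-type cells 4 came from the mural gate, whose other 11 neural-like cells summed to 1700.4 CPM.

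Genes of the list named here were picked as higher in both comparisons, after their values were seen. *Msx2*, a target of BMP signaling, had 88.8 CPM against 2.56 on plate 4, and 125.5 CPM in the wild-type cells, where the other 120 cells had none. *Bmp4*, a hem ligand, had 98.7 against 5.12 CPM and 47.1 against 3.23 CPM. *Id3*, another BMP target, had 1009.2 against 320.4 CPM and 628.2 against 22.6 CPM. *Emx2*, a factor of the medial cortex, had 172.7 against 28.2 CPM and 204 against 35.6 CPM.

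Among 6 Wnt target genes with that many transcripts, 4 were higher in both comparisons and 1, *Ccnd1*, was lower. The list of 8 summed to 661.3 against 279.2 CPM on plate 4. In wild type it summed to 345.2 CPM in the 8 cells, against 141.2 CPM in the other neural gate cells but 314.7 CPM in the other 11 neural-like cells of the mural gate. *Axin2* had 291.2 against 38.4 CPM on plate 4 and 78.4 against 18.3 CPM in wild type, *Sp5* 98.7 against 30.7 and 125.5 against 6.47 CPM, and *Nkd1* 157.9 against 25.6 and 94.1 against 30.2 CPM. Of the Wnt receptors 2 of 9 were higher in both and 4 lower, and of the Wnt antagonists 2 of 5 were higher and 3 lower. Of the other Wnt ligands 2 of 6 were higher in both and 0 lower. Of the R-spondin receptors and ligases 0 of 3 were higher in both and 2 lower. The wild-type values rest on 8 cells with between 3 and 40 transcripts for each of the genes named as higher.

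Markers of other tissues were looked at in the same cells. *Ttr*, the defining gene of choroid plexus epithelium, was not found in any of the 31 cells, and 2 of 8 choroid plexus markers, *Otx2* and *Folr1*, were found on plate 4, where the list summed to 202.3 CPM against 312.8 in the other neural-like cells. The same 2 genes made 204 CPM in the 8 wild-type cells against 81 CPM for the list in the other neural gate cells. The list of 11 floor plate and midbrain markers, where *Lmx1a* is also known to be expressed, summed to 202.4 CPM on plate 4 against 292.2 CPM in the others, and to 0 in the 8 wild-type cells. The 10 mural markers summed to 325.7 CPM on plate 4 and 235.3 CPM in wild type, against 12485 CPM in the mural-like cells of plate 4, and *Pdgfrb*, the gene of the mural sort marker, was found in 8 of the 23 cells and 2 of the 8. Fibroblast and meningeal markers summed to 78.9 and 109.8 CPM, against 33.3 and 18.3 CPM in the other cells and 1103 CPM in the mural-like cells of plate 4. The 10 endothelial markers summed to 157.9 and 78.4 CPM against 41 and 49.6 CPM. The 8 progenitor markers summed to 7182 CPM on plate 4 against 16847 CPM in the others, and to 4290 CPM in wild type against 1905 CPM, so the kinds of cell compared were not alike. The part of all these cells in the levels above was not tested.

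**Figure D4:**
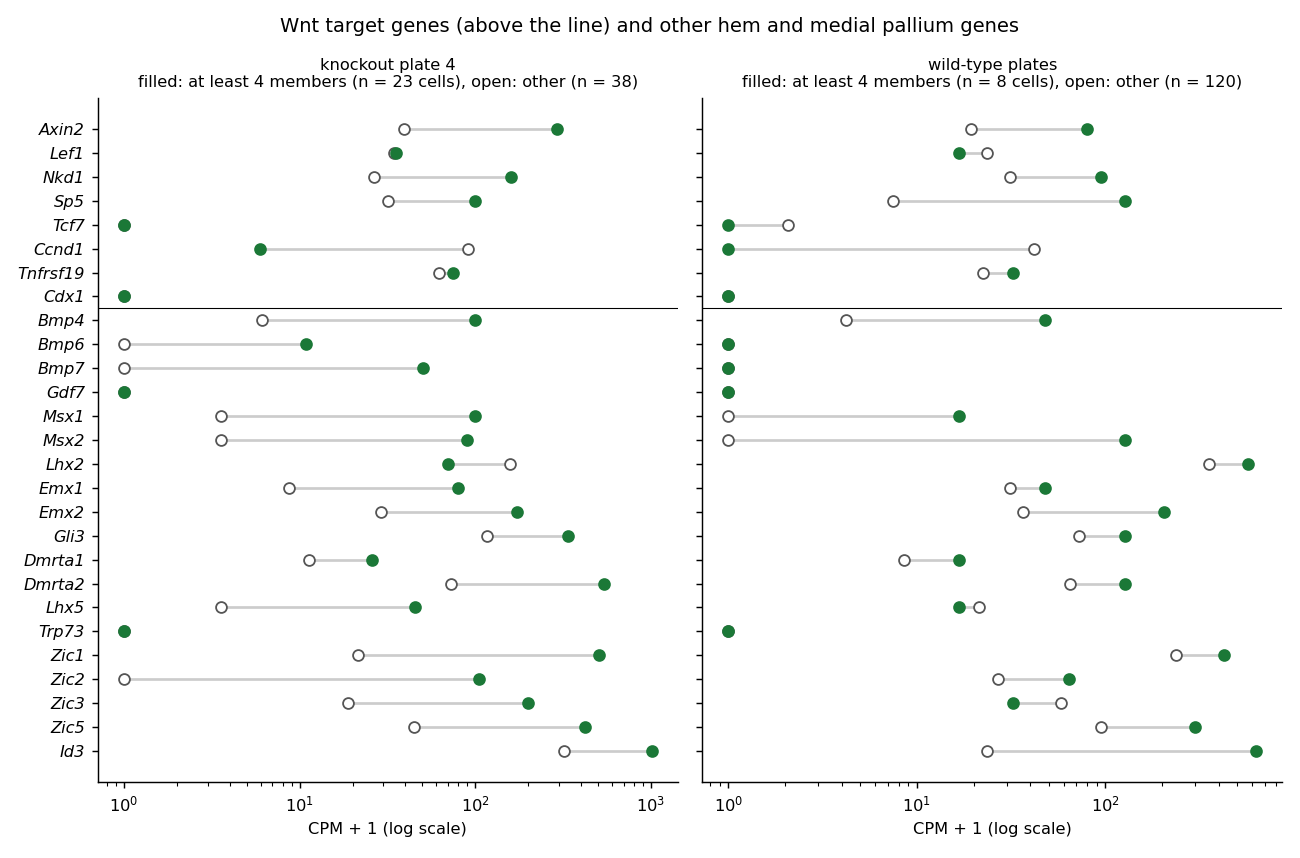
Level (CPM + 1, log scale) of the 8 Wnt target genes (above the line) and of the list of other hem and medial pallium genes (1 of its 20 is not drawn) in cells with at least 4 of the 9 genes (filled) and in other cells (open: the other 38 neural-like cells on plate 4, left, and the other 120 cells of the neural gate in wild type, right). Where a gene has no transcript in both sets the filled point covers the open one, and the filled points of *Axin2*, *Msx2*, *Bmp4* and *Id3* lie to the right of the open ones in both panels.

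For genes that the choice did not use, the bulk populations were compared with limma over 19765 genes. Of 84 genes in 6 lists 68 could be tested. In neural cells 44 of them, or 64.7%, were higher than the mean of the other 3 populations, against 32.9% of all genes, and 7, or 10.3%, were lower, against 31.2%. Their median log2 difference was 3.43, against 0.09 over all genes. In microglia 1 was higher and 42 lower, against 23.4% and 22.3% of all genes, in endothelial cells 19 were higher and 25 lower (19.7% and 22.4%), and in mural cells 13 were higher and 7 lower (19.3% and 22.7%). Nothing is separated here from the kit used for the neural libraries. The lists were drawn up with earlier results of these data known. The hem and medial pallium list, with 15 of the 44 calls, is of neural regions, so higher levels in neural cells could be foreseen. The shares describe the lists and are no independent support.

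The R-spondin receptors and ligases did not share 1 pattern, with 2 of 6 tested genes higher in neural cells, 1 lower and 3 not passing. *Lgr4*, an R-spondin receptor, had 613, 609.1 and 513.6 normalized counts in neural cells, against 337.3, 496.5 and 317.5 in mural cells. Endothelial cells held 53.2, 0 and 16.6 and microglial libraries 161.7, 97.2 and 317.3. All 3 neural libraries lay above the others, and its log2 difference in neural cells was 2.75 ± 0.93 (SE, adjusted p = 0.023, limma), which did not pass without the brain of N-340 or N-346 (adjusted p = 0.056 and 0.12) or with quantile normalization (0.051). *Lgr5* had 347.3, 293.8 and 54.3 in endothelial cells against 38.7, 39.3 and 48.3 in neural cells, 10, 100.4 and 125.9 in mural cells and 9.51, 23.7 and 1.26 in microglia. The endothelial libraries overlapped the mural ones, of which 2 lay above the lowest endothelial library, and the log2 difference in endothelial cells was 2.75 ± 0.94 (adjusted p = 0.036). *Lgr6* was low in all populations, with 20.7 ± 3.23 (SD, n = 3) in neural cells and 31.1 ± 30.3 in mural cells, and did not pass for neural cells (adjusted p = 0.2).

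Of the 2 ligases, *Znrf3* had its highest mean in endothelial cells, with 1617.8, 938.3 and 915.5 normalized counts against 486.1, 497.3 and 478.7 in neural cells. Its log2 difference was 1.06 ± 0.24 (adjusted p = 0.0051) in endothelial cells and -0.53 ± 0.24 (adjusted p = 0.076) in neural cells, where it passed as lower after quantile normalization (-1.05, adjusted p = 0.0026) and with DESeq2 (adjusted p = 0.048). *Rnf43* was 38.4 ± 15.9 (SD, n = 3) in neural cells, 26.5 ± 33.3 in microglia and 0 in each endothelial library, with a log2 difference of 3.39 ± 1.19 in neural cells (adjusted p = 0.027), which did not pass with edgeR (adjusted p = 0.078), with DESeq2 (0.16) or without the brain of N-340 or N-346 (0.1 and 0.11). *Sdc4*, a syndecan that binds R-spondin 3, was highest in microglia, with 1164.9, 1726.6 and 1350.9 normalized counts against 98.8, 101.9 and 98.8 in neural cells, where it was lower by 2.11 ± 0.35 on the log2 scale (adjusted p = 0.00032). The remaining ligand, *Rspo4*, was below 2 normalized counts in every library and was not tested.

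**Figure D5:**
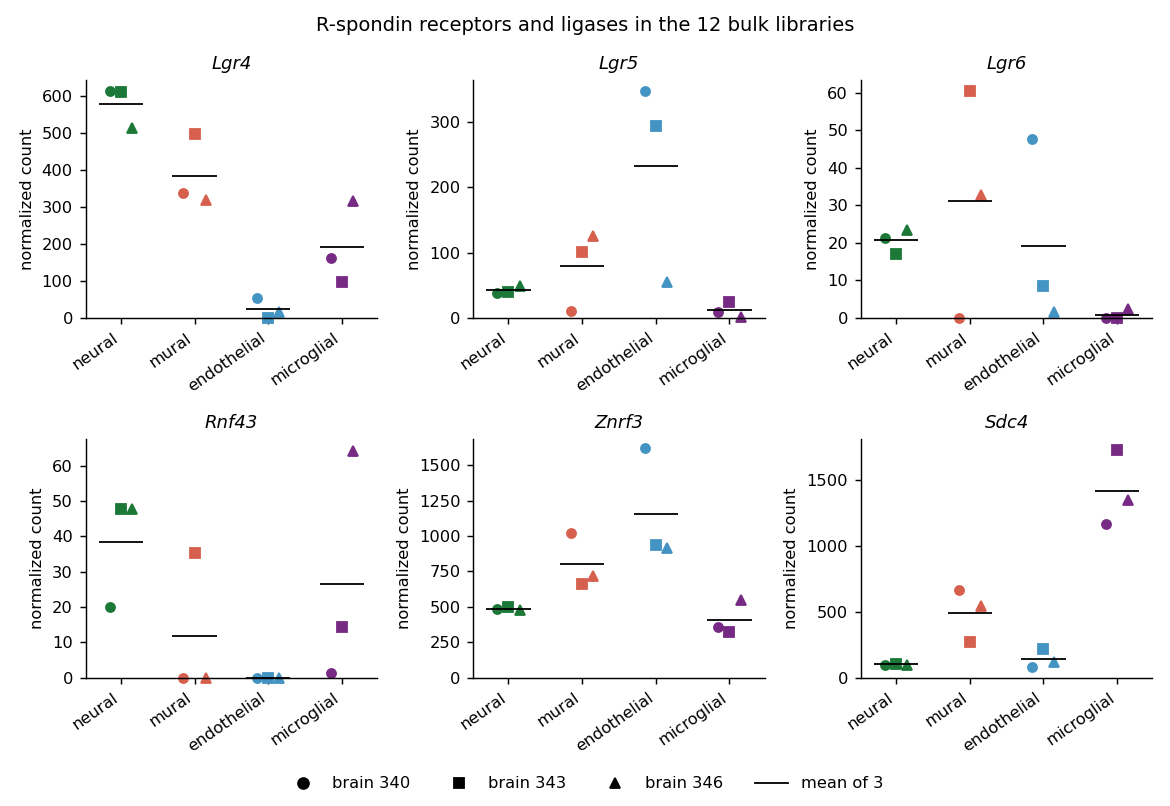
Normalized counts (vertical axis, linear, from 0) of 6 R-spondin receptors and ligases in the 12 bulk libraries by population, with a point per library, its shape giving the brain, and a line at the mean of 3. *Lgr4* is highest in neural cells, *Lgr5* and *Znrf3* in endothelial cells and *Sdc4* in microglia by their means, and the endothelial and mural points of *Lgr5* overlap.

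Of 15 Wnt receptors 10 were higher in neural cells and 1 lower. *Fzd2* was at 1721 ± 38.2 normalized counts (mean ± SD of 3) in neural cells and 154.5 ± 42.7 in mural cells, a log2 difference of 6.07 ± 0.93 from the other populations (adjusted p = 0.0002). *Ror2*, a receptor for WNT5A, had 295.4 ± 17.6 in neural cells, 193 ± 81.8 in mural cells and 0 in all endothelial and microglial libraries (5.71 ± 0.44, adjusted p = 1e-06). Its ligand *Wnt5a* was thus high in the same 2 populations. *Fzd6* was highest in endothelial cells, with 4758.4 ± 1236.9, and was 76.7 ± 13 in neural cells (-1.42 ± 0.37, adjusted p = 0.0062), a call that was lost with edgeR (adjusted p = 0.26), DESeq2 (0.083) and without the brain of N-343 (0.07).

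Of 9 other Wnt ligands and secretion genes tested, 6 were higher in neural cells and 1 lower. *Wnt7b*, a ligand of neural progenitors known to act on brain vessels, had 3197.3 ± 245.4 (SD, n = 3) normalized counts in neural cells against 72.2 ± 31.9 in mural cells (7.36 ± 1.18, adjusted p = 0.00027), and *Wnt7a* had 699.7 ± 36.5 against 58 ± 41.9 (6.61 ± 0.88, adjusted p = 7e-05). *Wls*, which carries Wnt proteins to the cell surface, was highest in mural cells at 10681.5 ± 1198.2 and lowest in neural cells at 1092.9 ± 39.7 (-1.60 ± 0.16, adjusted p = 7.3e-06), with all neural libraries below the other 9.

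Of 13 Wnt antagonists 7 were higher in neural cells and 1 lower. *Draxin*, a secreted antagonist and guidance protein, had 5654.7 ± 263.3 (SD, n = 3) normalized counts in neural cells against 40.7 ± 27.4 in mural cells (9.11 ± 1.31, adjusted p = 0.00012). *Sfrp4* had 208.6 ± 14.7 in neural cells and was at 0 in every other library but Mu-343, with 299 (6.79 ± 1.41, adjusted p = 0.0016). *Dkk2*, of the same family as *Dkk3*, was also highest in mural cells, at 2097.7 ± 673.2 against 12 ± 0.15 in neural cells (-4.03 ± 0.81, adjusted p = 0.0013).

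Of 7 Wnt target genes 4 were higher in neural cells and 2 lower, while 6 were higher in endothelial cells. *Sp5* had 207.5 ± 4.19 (SD, n = 3) normalized counts in neural cells, 0, 237.1 and 63.3 in endothelial cells and under 2 in the others (5.62 ± 1.28, adjusted p = 0.0028). *Tnfrsf19* had 2303.6 ± 112.3 in neural cells, which was below the means of mural (3780.8 ± 1444.8) and endothelial cells (3648.6 ± 1180.3) and far above that of microglia (8.58 ± 7.49), giving a neural difference of 2.46 ± 0.68 (adjusted p = 0.0084, and 0.059 without the brain of N-340). *Tcf7* was highest in endothelial cells, with 1752.9 ± 397.9, against 75.9 ± 11.9 in neural cells (-2.20 ± 0.41, adjusted p = 0.0008). *Ccnd1* was lowest in neural cells, with 2503.2 ± 143.5 (-1.16 ± 0.19, adjusted p = 0.00031).

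Of 18 other hem and medial pallium genes tested, 15 were higher in neural cells and 1 lower. *Trp73*, a marker of the Cajal-Retzius cells that arise in part from the hem, had 576.4 ± 35.8 (SD, n = 3) normalized counts in neural cells and 0, 12.6 and 0.94 in mural cells, and none in the other populations (8.65 ± 0.67, adjusted p = 1.1e-06). It was not found in any of the 31 cells described above. *Lhx5*, of the same cells and the hem, had 1394.3 ± 36.8 in neural cells (6.99 ± 1.18, adjusted p = 0.00038). *Id3* was the 1 gene lower in neural cells, at 371.4 ± 28.2 against 10441.9 ± 683.2 in mural and 10557 ± 2400.3 in endothelial cells (-3.53 ± 0.28, adjusted p = 1.3e-06). All these differences are on the log2(normalized count + 1) scale, which understates low genes and, for genes at 0 elsewhere, depends on the 1 that is added.

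In the single cells, edgeR was run on the summed transcripts of each gate on each plate, over 9281 genes. Of 32 pathway genes tested 16, or 50%, were higher in the neural gate, against 22.5% of all genes, and 6, or 18.8%, were lower, against 17.3%. Without plate 1 these were 8 and 3, and without the 15 neural-like cells of the mural gate they stayed at 16 and 6. The 3 of the 9 genes that passed its filter, *Rspo3*, *Wnt5a* and *Dkk3*, were left without a test. *Wnt7b* (log2 fold change 5.72, adjusted p = 1.3e-11), *Draxin* (4.03, adjusted p = 3e-12) and *Fzd2* (4.27, adjusted p = 3.1e-09) were higher in the neural gate, and *Wls* (-1.88, adjusted p = 4.7e-06), *Id3* (-1.95, adjusted p = 7.2e-06), *Ccnd1* (-1.48, adjusted p = 9.3e-05), *Fzd6* (-3.69, adjusted p = 0.0055) and *Tcf7* (-3.38, adjusted p = 0.039) were lower, the directions they had in bulk. *Tnfrsf19*, higher in bulk neural cells, had a log2 fold change of -0.11 here (adjusted p = 1), and of the R-spondin receptors and ligases only *Znrf3* could be tested (-0.29, adjusted p = 0.7).

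Between the neural-like cells of the knockout and wild-type plates, edgeR called 0 of 32 pathway genes tested and 0% of all 7446 genes in either direction. At an unadjusted p under 0.05 there were 5 of the 32 and 339 of all genes, and DESeq2 called 0 of the 32 and 4 of all. Among the 5 of the 9 genes that passed the filter here none is tested, as above. Without a filter on low counts 3 pathway genes were called higher, *Id3* (adjusted p = 0.00067), *Wnt9a* (0.0029, with 33 transcripts against 0, of which 31 were in the 23 cells of plate 4 with at least 4 members) and *Dmrta2* (0.026), of 67 pathway genes and against 0.401% of all 19438 genes then tested that were called higher, and 0 were called lower, against 0.0772%. With the filter, *Axin2* had a log2 fold change of 1.47 (adjusted p = 0.93), *Wls* of 1.22 (adjusted p = 0.93) and *Id3* of 1.78 (adjusted p = 0.93). The 3 plates of a genotype differed in the cells they held, so that a p above the threshold does not show that the genotypes were alike.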

How the data were processed

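Bulk RNA-seq covered 12 libraries and scRNA-seq 23 libraries of brain cells. The values deposited by the authors for bulk are normalized counts, a signal on a linear scale and scaled per library. Per the labels, notes on processing name STAR, featureCounts and DESeq2, BWA 0.6.2-r126 and the build mm10. Every one of 124078 values up to 100 reads was a whole number of reads within 0.01 (100%), and edgeR on these recovered reads called 12288 genes in neural cells, against 12680 with limma. Those of the single cells, as deposited, are expected counts of transcripts, the number of identifiers corrected with 4096 possible ones. These values were rounded only for sums. Libraries share the set of well barcodes, which name wells and not shared cells. The sort gate of each wild-type well was deposited too. From each file only the wells of its own library were read; 1 library on plate 3 has another number in its title than in the table of gates. No column of another sample was found.

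Gene names and exon lengths came from GENCODE vM21. Bulk populations were compared with limma 3.58.1 (R 4.3.3) on log2(normalized count + 1), trend included, for genes with a mean of at least 10, each against the mean of the other 3. Sums of single cells were compared with edgeR 4.0.16 (quasi-likelihood, TMM) and, as an alternative, DESeq2 1.42.0. All tests were two-sided, with Benjamini-Hochberg adjusted p under 0.05 over all genes tested. Cells had more than 1500 transcripts, no doublet caller was run, and intervals are Clopper-Pearson at 95%. The methods were tested on simulated data. The members, lists and alternatives were chosen with earlier results of these data known. Named are the 9 genes, all R-spondin receptors and ligases, up to 2 called genes per direction of each other list, the 2 most correlated genes per member, *Kat8*, and, in the comparison of cells with at least 4 members, genes chosen after their values were seen. Libraries with the same number come from 1 brain. Their residual correlations between populations ran from -0.054 to 0.080. The study took its wild-type single cells from 3 brains, but the labels tie no plate to a brain, so p-values there measure the spread between plates. Of the hem and medial pallium list, 1 gene enters the counts and sums and is not reported here by itself.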

Additional observations from a re-analysis of the deposited data

How the results depend on the processing

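The counts of pathway genes kept within 1.5 times of their main value in all but 15 comparisons with an alternative. For bulk neural cells, 34 to 38 genes were higher without 1 brain in turn and 6 to 8 lower, and with the replicate block for the brain 45 were higher and 7 lower, so that the pairing changed no count of calls by more than 1.5 times in any population. The plate block gave 20 higher and 7 lower genes in the neural gate. The counts that moved were those of genes lower in mural cells (7 in the main setting), at 4 with a pseudocount of 0.5, 3 with edgeR, 4 with DESeq2 and 3 to 6 without 1 brain. Genes lower in endothelial cells (25) were 13 with edgeR and 12 to 20 without 1 brain, and genes higher there (19) were 12 to 20 without 1 brain. Genes higher in microglia (1) were 2 without a filter and 1 to 2 without 1 brain. In the neural gate, 8 to 18 genes were higher and 3 to 7 lower without 1 plate (the lowest without plate 1). For the knockout plates, 3 genes (*Dmrta2*, *Id3* and *Wnt9a*) were called higher without a filter on low counts, of 67 tested, where 93 of all 19438 genes were called in either direction. No paired analysis of genotype was possible because each plate holds 1 genotype.

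*Lgr5* in neural cells changed sign without passing any threshold, at -0.18 with a pseudocount of 5, -0.47 with edgeR, -0.51 with DESeq2, and -0.48 to 0.59 without 1 brain. The *Rspo1* log2 ratio of neural cells to the other libraries was 0.04, and -0.15 to 0.17 without 1 brain. Quantile normalization moved the median log2 difference of all genes in neural cells from 0.09 to -0.16. Cells with at least 4 members numbered 4 on the wild-type plates and 17 on plate 4 after thinning to 1500 transcripts, and 6 and 22 above 3000 transcripts. The cause of these changes was not tested, except that thinning and leaving out samples lower what can be found. Settings chosen after the values were seen, leaving out Mu-343, the neural-like cells of the mural gate or the cells with at least 4 members, changed no count by more than 1.5 times. The last was run only for the knockout comparison with the filter on low counts. There the main setting called 0 genes, so that count could not fall.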

Other observations

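Away from the neural cells, *Dkk3* and *Wnt5a* were found in mural-like cells of both genotypes. In the 274 mural-like cells of plate 4, *Dkk3* was at 38.5 CPM and found in 62 cells, or 22.6%, against 41.4 CPM and 25.3% of cells on wild-type plate 1 and 27.2 CPM and 16.7% on plate 2. *Wnt5a* was at 34 CPM and found in 55 of these cells, or 20.1%, against 37.9 CPM and 19.54%, and 41.3 CPM and 22.2%. In the 13 mural-like cells of wild-type plate 3, *Dkk3* was at 108.4 CPM (30.8% of cells) and *Wnt5a* at 21.7 CPM (15.4%). In the 10 mural-like cells of knockout plate 6, *Dkk3* was not found and *Wnt5a* had 1 transcript (17.2 CPM). *Rspo1* was not found in the 80 microglial-like cells of plate 5, and was found in 5 of 68 on wild-type plate 1 and 1 of 58 on plate 2. These differences were not tested.

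*Wnt9a* was found in 16 of the 23 cells with at least 4 members on plate 4, with 31 transcripts or 153 CPM, against 2.56 CPM in the other neural-like cells of that plate, and in none of the 8 such wild-type cells or the 120 other cells of the neural gate. *Dmrta2*, a relative of *Dmrt3*, was at 538.6 CPM in the 23 cells against 71.7 CPM in the others, and at 125.5 CPM in the 8 wild-type cells against 63.6 CPM. Both genes were picked after their values were seen.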
